A study of Homo sapiens with 4 samples.

Results

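Kinesins are motor proteins that use ATP to move along microtubules or to take microtubules apart. The genes described here are the 39 protein-coding genes, of 64252 gene IDs in the count table, whose symbol is KIF followed by a number and optional letters. The rule uses symbols and no measured value, but it and the split by role were set with earlier results of these data known. By the role for which each is best known, the genes fall into these groups: 13 mitotic, 9 ciliary or centriolar, 12 for axonal and organelle transport, and 5 others. RNA was sequenced from SK-N-BE(2), an established human neuroblastoma line with amplified MYCN. The cells had received a short hairpin RNA against TTC8 (shTTC8, 2 libraries) or a scramble hairpin (shScb, 2 libraries), and all 4 libraries came from that one line. TTC8 encodes a subunit of the BBSome, a complex that carries membrane proteins through the primary cilium. How many hairpins were used is not stated in the labels, so effects of losing TTC8 and off-target effects of a hairpin cannot be told apart.

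In dividing cells, mitotic kinesins push spindle poles apart, move and align chromosomes, trim microtubule ends and build the central spindle that guides cytokinesis. In the primary cilium, heterotrimeric kinesin-II, made of KIF3A, KIF3B and the adaptor KIFAP3, drives intraflagellar transport trains towards the tip. In neurons and neuron-like cells, kinesins of the KIF1, KIF5 and KIF13 families carry vesicles, mitochondria and other cargo out along the axon, often through light chains and scaffold proteins.

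The libraries held 38284663 and 40863047 counts in shTTC8 and 51168727 and 55331449 counts in shScb. TTC8 stood at 29.9 ± 1.09 CPM in shTTC8 and 193 ± 3.05 CPM in shScb (SD, n = 2 each), where CPM are counts scaled to a common library size after TMM correction. Its log2 fold change was -2.70 (SE 0.07, adjusted p = 5.38e-12 by edgeR). Of 9 sympathetic neuroblastoma markers, all tested, 7 fell and 1 rose, where 20.6% of tested protein-coding genes fell and 18.6% rose. The 1 that rose was ISL1, and HAND2 was not called. The summed level of the 9 ran from 6401 to 6572 CPM in shTTC8 and from 8900 to 9234 CPM in shScb. MYCN alone had 3713 and 3820 CPM in shTTC8, against 5661 and 5815 CPM in shScb. Fibroblast marker genes moved with the groups: 6 of 7 were tested and all 6 fell, with sums of 226 to 236 CPM in shTTC8 and 475 to 494 CPM in shScb, and COL1A2 was under 20 counts over all libraries. Endothelial markers summed to at most 0.309 CPM in shTTC8 and 1.66 CPM in shScb with PECAM1 and TEK at 0, and the 1 tested, VWF, fell. Blood cell markers summed to at most 4.74 CPM in shTTC8 and 16.7 CPM in shScb, with CD3E at 0; of 2 tested, PTPRC fell. Schwann cell and multiciliated cell markers summed to under 12 CPM in every library, none of the 8 tested was called, and SOX10 and RSPH1 were at 0. The part of these markers in the kinesin results was not tested.

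Of the 39 kinesin genes, 35 passed the low-count filter. KIF2B, a spindle kinesin, had 0 counts in every library, which allows up to 0.0772 and 0.0725 CPM in the shTTC8 libraries and 0.0593 and 0.0552 CPM in the shScb libraries. KIF12, KIF19 and KIF21B had at most 10 counts in a library and were not tested. By edgeR's quasi-likelihood test at an adjusted p of 0.05, 4 kinesin genes rose and 12 fell in shTTC8. The 16 called genes were 45.7% of those tested, where 39.2% of tested protein-coding genes and 31.9% of all tested genes were called. The fallen genes were 34.3% of those tested, beside a background of 20.6% of protein-coding genes, and the raised ones 11.4% beside 18.6%. No tested kinesin gene differed by 2-fold or more, and 12 of the 16 called genes had an absolute log2 fold change under 0.5. Log2 fold changes are of shTTC8 over shScb throughout. The libraries of the groups did not overlap in 22 tested kinesin genes (62.9%, where 71.1% of tested protein-coding genes did not overlap). With library size alone as the scaling, 6 kinesin genes rose and 11 fell. That scaling shifted the log2 fold changes of all tested genes by a median of 0.041. Over all tested genes 3508 then rose and 2835 fell, against 2974 and 3284 with TMM.

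**Figure D1:**
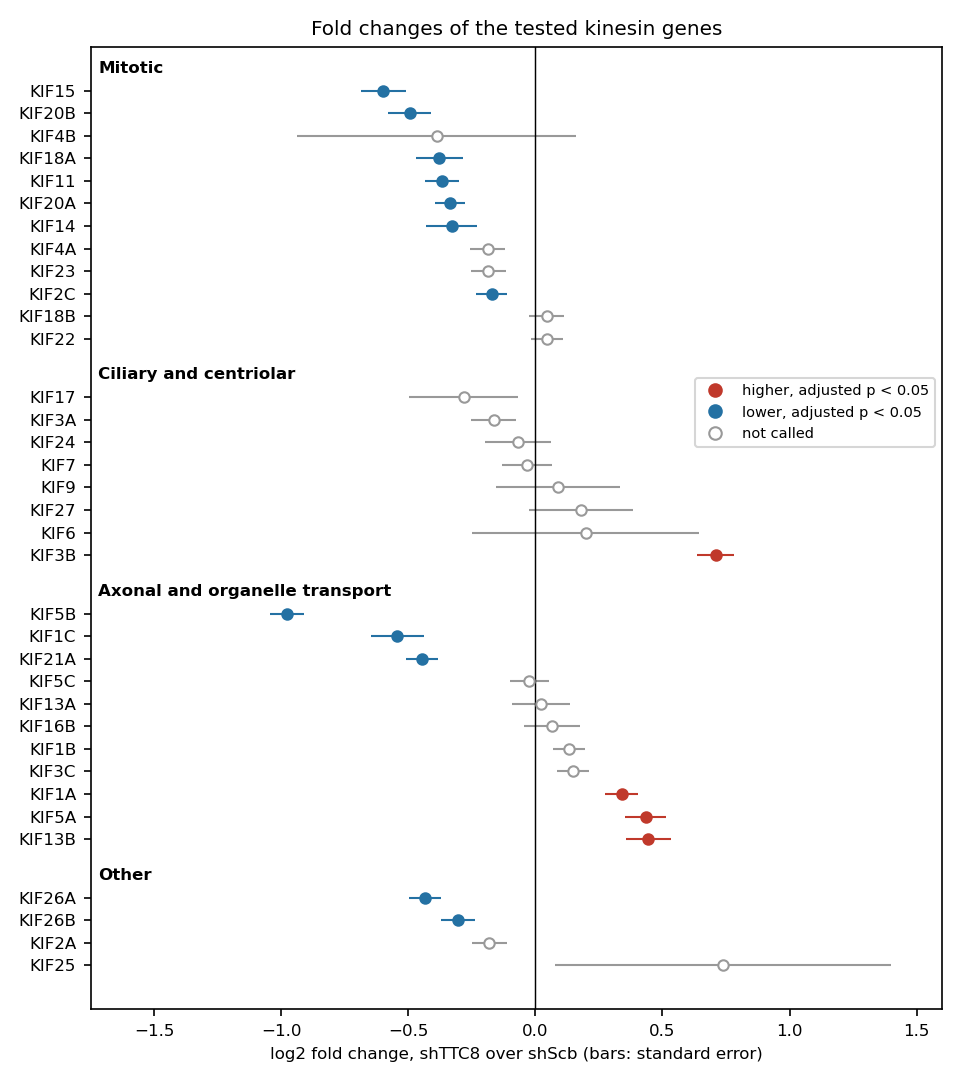
Log2 fold changes (shTTC8 over shScb, x axis) of the 35 tested kinesin genes, grouped by role, with bars of 1 standard error; filled points passed an adjusted p of 0.05 and open grey points did not. Among the mitotic genes the 7 filled points lie below 0, KIF3B stands alone to the right among the ciliary genes, and the axonal genes run from KIF5B at -0.98 to KIF13B at 0.44.

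Levels were also taken per kilobase of exonic length, which covers every exon annotated for a gene. Levels set between genes in this way therefore depend on the annotation. On this scale, the kinesins summed to 355 ± 3.54 CPM per kb in shTTC8 and 414 ± 0.674 CPM per kb in shScb (SD, n = 2 each). Mitotic kinesins made up 48.0% ± 0.598 of that sum in shTTC8 and 47.1% ± 0.0132 in shScb. Axonal kinesins made up 31.2% ± 0.0732 in shTTC8 and 32.4% ± 0.998 in shScb, and ciliary kinesins 6.76% ± 0.195 in shTTC8 and 4.96% ± 0.158 in shScb (SD, n = 2 each). In CPM per kb, the mitotic sum was 170 ± 3.82 in shTTC8 and 195 ± 0.372 in shScb (SD, n = 2 each). The axonal sum was 111 ± 0.844 in shTTC8 and 134 ± 3.91 in shScb, and the ciliary sum 24.0 ± 0.452 in shTTC8 and 20.5 ± 0.685 in shScb (SD, n = 2 each). Within the ciliary sum, KIF3B alone had a mean of 10.6 CPM per kb in shTTC8 and 6.50 CPM per kb in shScb. The 3 highest mean levels per length in shTTC8 belonged to KIF22 (38.8 CPM per kb), KIF20A (34.1 CPM per kb) and KIF26A (33.9 CPM per kb). In shScb they belonged to KIF26A (45.9 CPM per kb), KIF20A (43.0 CPM per kb) and KIF5B (40.7 CPM per kb), with KIF22 at 37.6 CPM per kb.

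Among 12 tested mitotic kinesins, 7 fell and none rose, where 20.6% of tested protein-coding genes fell and 18.6% rose. The median log2 fold change of the mitotic kinesins was -0.33, beside a median of -0.0003 over all tested protein-coding genes. In bulk RNA, fewer dividing cells and less of these transcripts per dividing cell cannot be told apart. The spindle pole motors were among the lower genes. KIF11 (ENSG00000138160, chromosome 10, 92593286 to 92655395 in GRCh38), the bipolar motor that slides spindle microtubules apart, had 69.1 and 73.4 CPM in shTTC8, against 94.7 and 89.3 CPM in shScb. Both shTTC8 libraries lay below both shScb libraries, and the log2 fold change was -0.37 (SE 0.07, edgeR adjusted p = 0.000601). KIF15 (ENSG00000163808, chromosome 3, 44761717 to 44873376 in GRCh38), which can stand in for KIF11 in keeping the spindle bipolar, had 21.2 and 20.8 CPM in shTTC8, against 33.1 and 30.5 CPM in shScb. Both groups stood apart, and at -0.60 (SE 0.09; adjusted p = 0.000117 by edgeR) its log2 fold change was the lowest of the mitotic kinesins. The spindle assembly factor TPX2, which binds KIF15 and KIF11, changed by -0.29 (SE 0.06) on the log2 scale.

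Kinesins of the central spindle and of cytokinesis fell in part. KIF20A, which brings the chromosomal passenger complex to the central spindle, had 133 and 137 CPM in shTTC8, against 168 and 172 CPM in shScb, without overlap (log2 fold change -0.33, SE 0.06, edgeR adjusted p = 0.000504). Of that complex, INCENP changed by -0.45 (SE 0.07), while AURKB, BIRC5 and CDCA8 were not called, with log2 fold changes of -0.04, -0.03 and 0.04. KIF20B, a late mitotic motor needed for cytokinesis, had 34.1 and 32.0 CPM in shTTC8, against 48.7 and 44.4 CPM in shScb (log2 fold change -0.49, SE 0.08). KIF14, which works with citron kinase at the midbody, had 34.6 and 29.3 CPM in shTTC8, against 42.9 and 37.3 CPM in shScb. The libraries of KIF14 came close to each other, and its call (log2 fold change -0.33, SE 0.10, edgeR adjusted p = 0.0203) was lost without shTTC8 replicate 2 (adjusted p = 0.248) and without shScb replicate 1 (adjusted p = 0.0545). Over all 11 alternatives its adjusted p ran from 3.77e-05 to 0.248. CIT, citron kinase itself, had 42.4 ± 1.61 CPM in shTTC8 and 70.4 ± 0.499 CPM in shScb (SD, n = 2 each; log2 fold change -0.73). KIF23, the motor of the centralspindlin complex, missed the threshold at 53.8 ± 2.14 CPM in shTTC8 and 61.2 ± 0.888 CPM in shScb (SD, n = 2 each; log2 fold change -0.18, edgeR adjusted p = 0.0581). Its centralspindlin partner RACGAP1 changed by -0.28 (SE 0.06).

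Among the motors that act on chromosomes and microtubule ends, KIF18A and KIF2C fell. KIF18A, which damps chromosome movements at the metaphase plate, averaged 19.8 ± 0.254 CPM in shTTC8 and 25.8 ± 1.47 CPM in shScb (SD, n = 2 each; log2 fold change -0.38, SE 0.09, edgeR adjusted p = 0.00543). KIF2C, a depolymerase that corrects wrong kinetochore attachments, had 99.3 and 106 CPM in shTTC8, against 115 and 117 CPM in shScb. Its call (log2 fold change -0.17, SE 0.06, edgeR adjusted p = 0.0462) was made in 4 of 11 alternatives and lost by DESeq2 (adjusted p = 0.0555), with a range of 0.0117 to 0.409 over the alternatives. KIF4A, a chromokinesin that works with PRC1 on the central spindle, stood at 62.0 ± 2.16 CPM in shTTC8 and 70.6 ± 2.81 CPM in shScb (SD, n = 2 each; log2 fold change -0.19) and just missed the threshold (edgeR adjusted p = 0.0501). PRC1 changed by -0.23 (SE 0.06). The groups overlapped for KIF22, a chromokinesin that pushes chromosome arms outwards, at 162 and 173 CPM in shTTC8 and 156 and 168 CPM in shScb. They also overlapped for KIF18B, which trims astral microtubules, at 72.7 and 67.3 CPM in shTTC8 and 66.3 and 69.5 CPM in shScb. KIF4B, an intronless copy of KIF4A, was under 1 CPM in all libraries and shared 14.0% of its 50-base stretches with other transcripts, so that its counts are uncertain.

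Several of these genes share exonic positions with a neighbour on the opposite strand, and whether the libraries mark strand was not tested. KIF20A shares 68 bases with CDC23 and 132 bases with BRD8. Over all libraries CDC23 had 39.7% as many counts as KIF20A (log2 fold change -0.44) and BRD8 38.6% as many (log2 fold change 0.25). KIF18A shares 61 bases with METTL15, which had 87.2% as many counts (log2 fold change -0.70). KIF4A shares 77 bases with PDZD11, which had 51.0% as many (log2 fold change 0.39). These percents compare counts of whole genes and do not measure reads in the shared bases. Kinesin genes were then left out if an exonic neighbour on either strand had at least 10% as many counts as the kinesin gene. Those with 10% or more of their 50-base stretches in another gene were left out too. Of the 24 tested genes that remained, 10 fell and 4 rose, where 20.6% of tested protein-coding genes fell and 18.6% rose. The motor CENPE, a kinetochore kinesin whose symbol lies outside the naming rule, had 42.5 ± 1.06 CPM in shTTC8 and 70.1 ± 4.34 CPM in shScb (SD, n = 2 each; log2 fold change -0.72, SE 0.07, edgeR adjusted p = 3.71e-06). KIFC1, the minus-end motor that clusters spindle poles, was not called, with 41.7 and 32.3 CPM in shTTC8 and 33.5 and 34.3 CPM in shScb. Among 15 mitotic partners of kinesins, 7 fell and none rose, where 20.6% of tested protein-coding genes fell and 18.6% rose, and the median log2 fold change was -0.14. CDK1, the kinase that drives entry into mitosis, had the smallest p of these partners, with 88.0 ± 2.46 CPM in shTTC8 and 144 ± 7.73 CPM in shScb (SD, n = 2 each; log2 fold change -0.71, SE 0.06, edgeR adjusted p = 1.06e-06). The other 8 of the 15, beside the 7 that fell, were not called. Among these 8 were CCNB1, PLK1 and AURKA, with log2 fold changes of -0.02, 0.003 and -0.05.

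Promoter letters were described next, since neither the naming rule nor the split by role used them. Many genes that peak in mitosis carry a cell cycle genes homology region (CHR) near the start of transcription. Its core letters are commonly TTTGAA or TTTAAA, the only spellings searched here, often with CCAAT boxes upstream. These letters were searched on both strands of promoter windows that RefSeq gives on GRCh38.p14, from 250 bases before to 50 bases after each start, in 33 of the 39 genes. CHR letters lay in a window of 11 of 13 mitotic kinesins (84.6%), of 0 of 7 ciliary kinesins and of 2 of 9 axonal kinesins (22.2%), while 24.7% of 15843 protein-coding genes held them. Over all kinesins with a window they lay in 13 of 33 (39.4%). The mitotic group was made by role, and the CHR is known from genes of that role. CCAAT lay in 10 of 13 mitotic kinesins (76.9%), beside 42.1% of protein-coding genes. The E-box CACGTG lay in none of the kinesin windows, beside 10.9% of protein-coding genes. All 7 mitotic kinesins that fell held CHR letters, but so did KIF4A, KIF4B, KIF18B and KIF23, which were not called. KIF22, which was not called, held neither of the spellings searched. The stretch printed for KIF22 holds TTCGAA, a related spelling that was not searched in any promoter. A match describes letters only and shows no binding.

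The bases before the start are printed for 6 of the mitotic kinesins whose CHR letters begin upstream of it. KIF14 and KIF2C also hold such letters but are not printed. KIF22, which holds neither spelling searched, follows. KIF3B and KIF5B come last, and their changes were the largest upward and downward among called kinesins. Capitals mark CHR letters (TTTGAA, its reverse complement TTCAAA, or TTTAAA) and CCAAT boxes (CCAAT or its reverse complement ATTGG). Each stretch ends at the base before the RefSeq start, is 120 bases long (240 for KIF5B), and is written 5′ to 3′ on the gene's strand. KIF22 has 2 windows, of which the more upstream is shown.
KIF15, chr3:44761674-44761793, plus strand: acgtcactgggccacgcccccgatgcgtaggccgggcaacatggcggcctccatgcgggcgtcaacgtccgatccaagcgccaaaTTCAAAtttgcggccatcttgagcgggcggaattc
KIF20A, chr5:138178992-138179111, plus strand: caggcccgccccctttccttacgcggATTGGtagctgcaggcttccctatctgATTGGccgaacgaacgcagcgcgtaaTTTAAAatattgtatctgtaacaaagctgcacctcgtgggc
KIF11, chr10:92593010-92593129, plus strand: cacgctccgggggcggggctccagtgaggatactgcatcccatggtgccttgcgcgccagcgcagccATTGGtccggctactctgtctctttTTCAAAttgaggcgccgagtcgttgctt
KIF18A, chr11:28108157-28108276, minus strand: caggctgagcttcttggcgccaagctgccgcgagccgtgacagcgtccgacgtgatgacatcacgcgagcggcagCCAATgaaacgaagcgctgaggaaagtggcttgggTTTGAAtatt
KIF23, chr15:69414229-69414348, plus strand: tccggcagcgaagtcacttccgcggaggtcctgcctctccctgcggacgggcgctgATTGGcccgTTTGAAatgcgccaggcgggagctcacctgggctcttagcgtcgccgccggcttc
KIF4A, chrX:70289984-70290103, plus strand: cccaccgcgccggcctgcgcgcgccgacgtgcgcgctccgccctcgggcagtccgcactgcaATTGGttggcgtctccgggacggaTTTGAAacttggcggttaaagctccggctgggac
KIF22, chr16:29790631-29790750, plus strand: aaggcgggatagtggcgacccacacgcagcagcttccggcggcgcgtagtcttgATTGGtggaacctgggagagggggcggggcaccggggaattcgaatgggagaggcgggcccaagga
KIF3B, chr20:32277531-32277650, plus strand: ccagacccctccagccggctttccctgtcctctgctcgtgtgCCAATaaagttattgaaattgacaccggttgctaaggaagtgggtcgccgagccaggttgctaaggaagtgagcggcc
KIF5B, chr10:32056426-32056665, minus strand: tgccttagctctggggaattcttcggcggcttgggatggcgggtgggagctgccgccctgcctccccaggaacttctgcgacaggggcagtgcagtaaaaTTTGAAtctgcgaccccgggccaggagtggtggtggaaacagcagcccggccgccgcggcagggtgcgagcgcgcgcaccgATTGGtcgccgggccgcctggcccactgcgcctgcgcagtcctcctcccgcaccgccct
Counted from the transcription start, with negative positions upstream, the first base of the CHR letters lies at -35 in KIF15, -41 in KIF20A, -28 in KIF11, -10 in KIF18A and -34 in KIF4A. KIF23 holds them at -55 and again at -211, KIF14 at 2 and again at -198, and KIF2C at -3. In KIF5B they lie at -140.

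**Figure D2:**
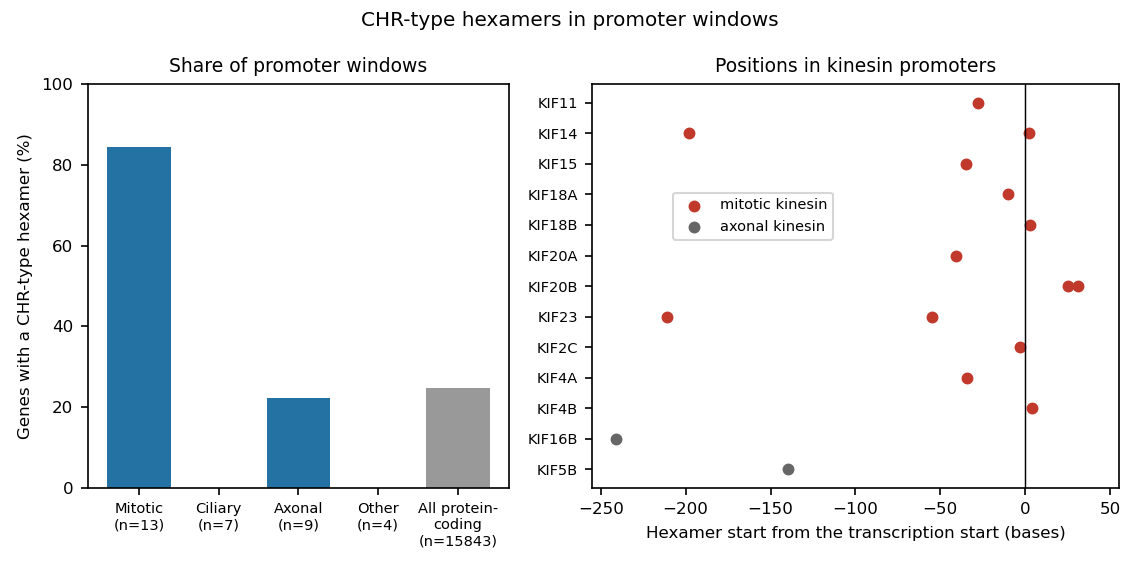
Left, percent of genes with a CHR-type hexamer in a promoter window by kinesin role and over 15843 protein-coding genes; right, the distance of each hexamer from the transcription start (x axis, bases) in the kinesin genes that hold one. The mitotic bar stands at 84.6% beside 24.7% over all protein-coding genes, and most mitotic hexamers lie within 60 bases of the start.

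Of 8 tested ciliary kinesins, 1 rose and none fell, where 18.6% of tested protein-coding genes rose and 20.6% fell. The median log2 fold change of the ciliary kinesins was 0.03. KIF3B (ENSG00000101350, chromosome 20, 32277664 to 32335011 in GRCh38), a motor subunit of kinesin-II, had 64.1 and 65.7 CPM in shTTC8, against 40.9 and 38.5 CPM in shScb. Both shTTC8 libraries lay well above both shScb libraries, at 164% of the shScb level (log2 fold change 0.71, SE 0.07, edgeR adjusted p = 3.75e-06). KIF3A, with which KIF3B pairs, had 23.7 and 22.9 CPM in shTTC8, against 26.9 and 25.4 CPM in shScb. Its groups did not overlap either, but at a log2 fold change of -0.16 (SE 0.09) it missed the threshold (edgeR adjusted p = 0.183). KIFAP3, the third subunit of the complex, was not called at 24.1 ± 0.821 CPM in shTTC8 and 22.8 ± 1.04 CPM in shScb (SD, n = 2 each).

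Per exonic length, KIF3B stood above KIF3A by 3.04- and 3.23-fold in the shTTC8 libraries, against 1.71- and 1.70-fold in the shScb libraries. KIF3C, which can pair with KIF3A in neurons and is counted here with the axonal kinesins, took the largest share of the 3 motor subunit genes, at 59.1% ± 0.288 in shTTC8 and 63.9% ± 2.15 in shScb (SD, n = 2 each). KIF3B took 31.0% ± 0.540 in shTTC8 and 22.7% ± 1.37 in shScb (SD, n = 2 each). In level, KIF3C averaged 20.25 CPM per kb in shTTC8 and 18.28 CPM per kb in shScb, so its smaller share was not a lower level. Together the 3 genes reached 34.3 ± 0.00394 CPM per kb in shTTC8 and 28.6 ± 0.498 CPM per kb in shScb (SD, n = 2 each). With 2 libraries against 2, an exact permutation test of such a share or ratio, two-sided, cannot go below p = 0.333, and none was made.

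**Figure D3:**
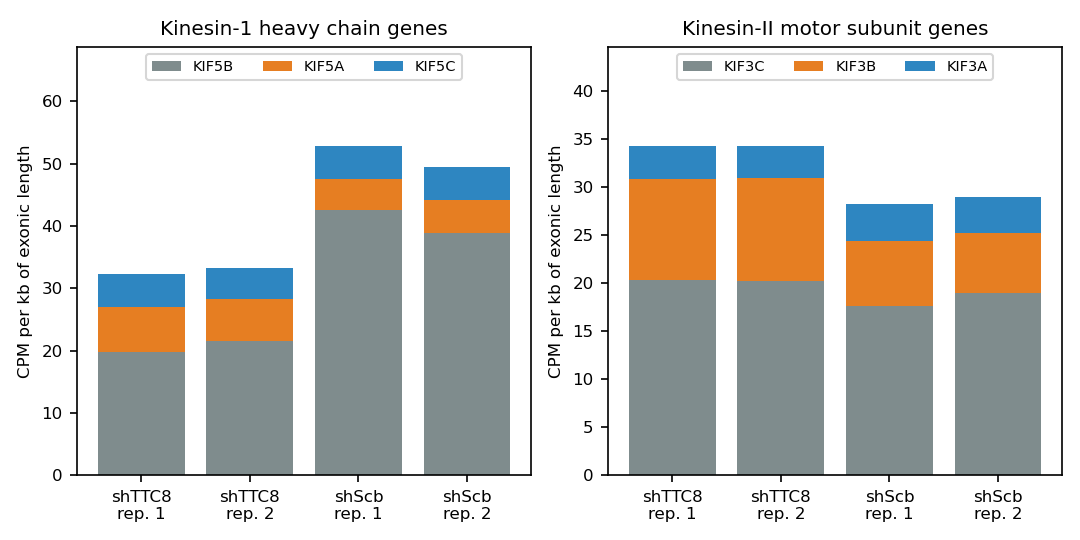
Levels of the kinesin-1 heavy chain genes (left) and kinesin-II motor subunit genes (right) in CPM per kb of exonic length, stacked for each library. The KIF5B block is shorter in both shTTC8 libraries than in both shScb libraries, and the KIF3B block is taller.

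The remaining ciliary kinesins were not called. KIF17, a homodimeric motor tied to ciliary entry of cargo and to dendritic transport, averaged 3.59 ± 0.420 CPM in shTTC8 and 4.37 ± 1.08 CPM in shScb (SD, n = 2 each), with overlapping groups. KIF7, a Hedgehog regulator at the cilium tip, had 32.1 and 29.5 CPM in shTTC8 and 28.6 and 34.4 CPM in shScb, so the groups overlapped. KIF7 shares 589 bases with TICRR, which as a whole gene had 98.7% as many counts as KIF7. KIF24, which holds back cilium formation at the mother centriole, averaged 10.1 ± 1.27 CPM in shTTC8 and 10.6 ± 0.692 CPM in shScb (SD, n = 2 each), and shares 143 bases with UBAP1 (370% of its counts). KIF27, a paralogue of KIF7, had 4.61 and 4.54 CPM in shTTC8 and 3.30 and 4.77 CPM in shScb, but 31.7% of its 50-base stretches lie in other transcripts. KIF9 and KIF6, both tied to motile cilia, had at most 2.50 and 0.669 CPM in any library. KIF9 shares positions with KLHL18 (708% of its counts) and with its antisense RNA KIF9-AS1, which fell to 0.636 ± 0.0110 CPM in shTTC8, against 1.86 ± 0.0800 CPM in shScb (SD, n = 2 each; log2 fold change -1.54, edgeR adjusted p = 0.00149). KIF19, which shortens motile cilia from the tip, had at most 4 counts in a library.

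Of 11 tested kinesins of axonal and organelle transport, 3 fell and 3 rose, where 20.6% of tested protein-coding genes fell and 18.6% rose. The median log2 fold change of these kinesins was 0.07. With library size alone as the scaling, 5 of the 11 rose and 3 fell, where 3508 of all 19610 tested genes rose and 2835 fell. KIF5B (ENSG00000170759, chromosome 10, 32009010 to 32056431 in GRCh38), the kinesin-1 heavy chain made in most cell types, showed the largest change of all called kinesins. It had 117 and 126 CPM in shTTC8, against 250 and 229 CPM in shScb. No library of one group came near the other group, and shTTC8 stood at 50.7% of the shScb level (log2 fold change -0.98, SE 0.07, edgeR adjusted p = 7.65e-08).

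Of the neuronal heavy chains of the same motor, 1 rose and 1 was not called. KIF5A rose, with 44.4 and 42.7 CPM in shTTC8, against 31.7 and 32.8 CPM in shScb (log2 fold change 0.43, SE 0.08, edgeR adjusted p = 0.000747). KIF5C had 49.6 and 46.0 CPM in shTTC8 and 48.9 and 48.4 CPM in shScb, which overlapped. Per exonic length, KIF5B made up 63.0% ± 2.24 of the 3 heavy chain genes in shTTC8 and 79.6% ± 1.15 in shScb (SD, n = 2 each). KIF5A made up 21.2% ± 1.06 in shTTC8 and 10.1% ± 0.736 in shScb, and KIF5C 15.8% ± 1.18 in shTTC8 and 10.3% ± 0.414 in shScb (SD, n = 2 each). Together the heavy chain genes reached 32.8 ± 0.697 CPM per kb in shTTC8 and 51.2 ± 2.45 CPM per kb in shScb (SD, n = 2 each).

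KIF21A and KIF1C were the other axonal kinesins that fell. KIF21A, which restrains microtubule growth at the cell cortex, had the most counts of any kinesin in shScb. It had 287 and 299 CPM in shTTC8, against 414 and 384 CPM in shScb (log2 fold change -0.45, SE 0.06, edgeR adjusted p = 6.89e-05). KIF1C, which moves dense core vesicles and integrins, had 12.5 and 12.6 CPM in shTTC8, against 17.6 and 18.9 CPM in shScb (log2 fold change -0.54, SE 0.10). KIF1A, the motor of synaptic vesicle precursors and dense core vesicles, rose, with 208 and 189 CPM in shTTC8, against 152 and 161 CPM in shScb (log2 fold change 0.34, SE 0.07, edgeR adjusted p = 0.00107). KIF13B, which carries phosphoinositide-bound vesicles, rose as well, with 30.7 and 33.7 CPM in shTTC8, against 23.3 and 24.1 CPM in shScb (log2 fold change 0.44, SE 0.09). KIF1B, a carrier of mitochondria and synaptic vesicle precursors, missed the threshold at 156 ± 0.497 CPM in shTTC8 and 142 ± 9.34 CPM in shScb (SD, n = 2 each; log2 fold change 0.13). KIF3C missed it at 130 ± 0.616 CPM in shTTC8 and 117 ± 5.97 CPM in shScb (SD, n = 2 each; log2 fold change 0.15). With library size alone as the scaling, under which more genes rose over the whole table, both rose (edgeR adjusted p = 0.0488 for KIF1B and 0.0274 for KIF3C). KIF13A and KIF16B, motors of recycling and early endosomes, overlapped between the groups, between 13.9 and 18.6 CPM in all libraries. KIF21B, the paralogue of KIF21A, had 0 and 10 counts in shTTC8 and 5 and 2 counts in shScb.

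**Figure D4:**
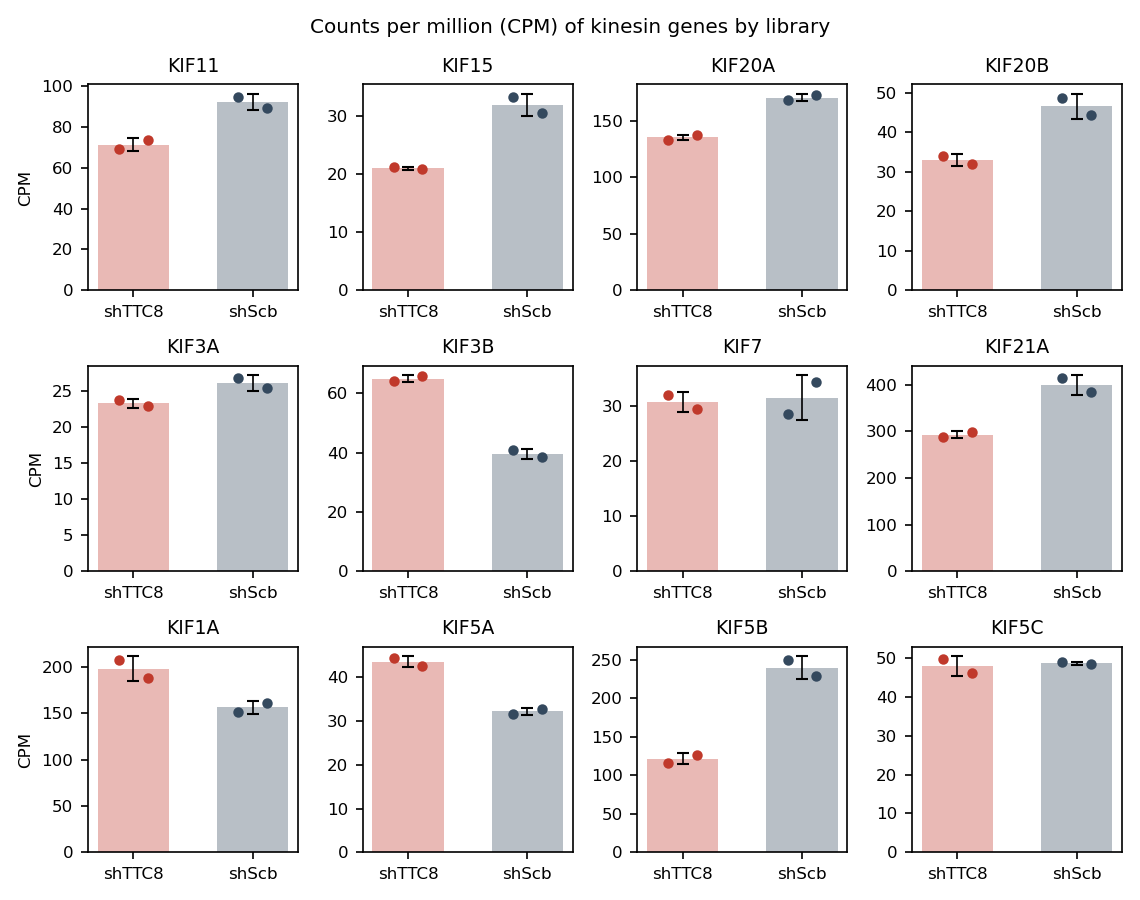
CPM of 12 kinesin genes in shTTC8 (red) and shScb (grey); points are libraries, bars are means and error bars are SDs over 2 libraries. KIF5B and KIF21A are lower in both shTTC8 libraries, KIF3B, KIF1A and KIF5A are higher, and KIF5C and KIF7 overlap.

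Of 17 tested cargo adaptors, light chains and cofactors of these motors, 8 rose and 1 fell, where 18.6% of tested protein-coding genes rose and 20.6% fell. Their median log2 fold change was 0.18. KLC2, a kinesin-1 light chain, had 118 ± 6.11 CPM in shTTC8 and 63.9 ± 2.60 CPM in shScb (SD, n = 2 each; log2 fold change 0.88, SE 0.07, edgeR adjusted p = 1.93e-07). MAPK8IP1, the JIP1 scaffold that links kinesin-1 to cargo and to JNK signalling, had 109 ± 5.11 CPM in shTTC8 and 57.4 ± 1.52 CPM in shScb (SD, n = 2 each; log2 fold change 0.93, SE 0.07, edgeR adjusted p = 1.12e-07). Its relative MAPK8IP2 rose by 0.59 (SE 0.07) on the log2 scale, and KIFBP, which holds several kinesins off the microtubule, by 0.64 (SE 0.09). TRAK2, which links kinesin-1 to mitochondria, was the 1 adaptor that fell (log2 fold change -0.29, edgeR adjusted p = 0.00736), and its paralogue TRAK1 overlapped between the groups at 68.8 ± 2.88 CPM in shTTC8 and 69.1 ± 0.945 CPM in shScb (SD, n = 2 each).

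Dynein, the motor that moves cargo the other way along microtubules, and its activator dynactin had 20 genes tested, of which 6 rose and 2 fell (median log2 fold change 0.08). The share called was near the 39.2% of all tested protein-coding genes. DYNLL2, a light chain, had 159 ± 5.92 CPM in shTTC8 and 90.2 ± 6.75 CPM in shScb (SD, n = 2 each; log2 fold change 0.81, SE 0.07). DYNLRB1 and DCTN3 rose by 0.41 and 0.40 on the log2 scale, and DYNC2I1, an intermediate chain of the ciliary dynein, changed by -0.44 (SE 0.09). Over all partner lists 56 genes were tested, of which 15 rose and 12 fell, where 18.6% of tested protein-coding genes rose and 20.6% fell. Among the C-terminal motors, KIFC3 had 45.8 ± 0.00268 CPM in shTTC8 and 27.1 ± 2.49 CPM in shScb (SD, n = 2 each; log2 fold change 0.76, SE 0.09), and KIFC2 changed by -0.30 (SE 0.10, edgeR adjusted p = 0.0361).

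**Figure D5:**
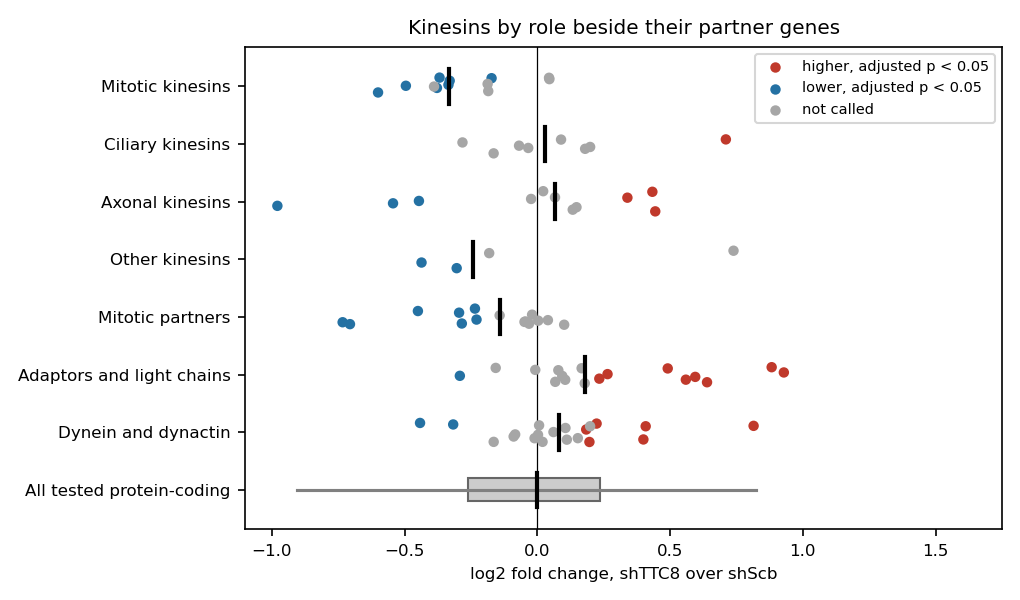
Log2 fold changes (shTTC8 over shScb, x axis) of single genes in each kinesin role list and partner list, with a black bar at the list median; the bottom row shows the median, middle 50% (box) and 5th to 95th percentile (line) of all tested protein-coding genes. The median of the mitotic kinesins is -0.33, that of the mitotic partners -0.14 and that of the adaptors and light chains 0.18.

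Of the 5 kinesins outside these roles, 4 were tested, 2 fell and none rose, where 20.6% of tested protein-coding genes fell and 18.6% rose. KIF26A, an atypical member that lacks motor activity and in mice restrains GDNF and RET signalling in enteric neurons, had 231 and 228 CPM in shTTC8, against 295 and 325 CPM in shScb (log2 fold change -0.44, SE 0.06, edgeR adjusted p = 9.83e-05). Its paralogue KIF26B, linked to WNT5A and ROR signalling, had 57.0 and 56.6 CPM in shTTC8, against 68.9 and 71.3 CPM in shScb (log2 fold change -0.30, SE 0.07, edgeR adjusted p = 0.0029). Both genes were lower without overlap. KIF2A, a depolymerase of spindle poles, cilia and axon branches, was not called at 57.6 ± 1.64 CPM in shTTC8 and 65.3 ± 1.33 CPM in shScb (SD, n = 2 each; log2 fold change -0.18, edgeR adjusted p = 0.0566). It shares 428 bases with IPO11, which as a whole gene had 60.7% as many counts as KIF2A. KIF25 was under 1 CPM in all libraries and overlaps KIF25-AS1, which had 1249% of its counts.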

How the data were processed

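Total RNA of 4 samples of SK-N-BE(2) was extracted with TRIzol and made into libraries with an Illumina TruSeq RNA kit, per the labels' protocols. HISAT2 2.2.0 and the build hg38 are named in the submitters' processing notes; for the read counter, its handling of shared reads and its annotation, nothing is given in the sources used here. The authors deposited raw counts by Ensembl gene ID, not normalized. Symbols came from a gene name table and GENCODE 29 (GRCh38), which also gave gene types, positions, exons and exonic lengths.

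Counts were tested in R 4.3.3 with edgeR 4.0.16: filterByExpr, TMM scaling and the robust quasi-likelihood F test on all 19610 genes kept, two-sided, at a Benjamini-Hochberg adjusted p of 0.05 across them. Each standard error was derived as log2 fold change divided by the square root of F, and CPM use TMM-scaled library sizes. The kinesin members, role lists, partner lists and markers were chosen with earlier results of these data known. Named genes are TTC8, every kinesin, KIFC1, CENPE and up to 4 called genes per partner list by smallest p; other partners, exonic neighbours and markers were named after their values were seen. The alternatives were RLE scaling, library size alone, other filters, DESeq2 1.42.0, limma-voom (limma 3.58.1), the replicate number as a block and each library left out. The fits were also run on simulated counts, as a check of the code only. That simulation gave every gene the same spread and changed few genes, unlike these data. Every value column was used. The labels do not say that libraries of a group are separate cultures, so the p-values reflect only how these libraries vary, which may be technical. Replicates correlated at r = 0.986 in shTTC8 and 0.987 in shScb over genes on log2 CPM, and differed by more than counting noise (chi-square per degree of freedom 6.88 in shTTC8 and 12.5 in shScb). Floors for a count of 0 use 3 counts per library and cover counting error only.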

Additional observations from a re-analysis of the deposited data

How the results depend on the processing

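Of the 16 called kinesins, 14 were called in all 11 alternatives; KIF14 and KIF2C were not. The number of called kinesins ran from 15 to 19 over scalings, filters, tools and the block. Over the same fits the number called among all genes ran from 5204 to 6435, and the number of genes tested changed with the filter. Mitotic calls ran from 6 to 9 in these fits, axonal calls from 6 to 8 and partner calls from 23 to 28. With a library left out, the kinesin, mitotic, partner and whole-table counts reached lower values. KIF3B was the 1 ciliary call throughout. TTC8 ran from -2.73 to -2.65 on the log2 scale. The labels do not say whether same-numbered libraries were paired. Deviations of same-numbered libraries correlated at r = 0.0317 across genes. Genes are not independent replicates, so this value does not settle whether libraries were paired. With the replicate numbers as a block, 15 kinesins were called and KIF2C was lost (edgeR adjusted p = 0.0751). In all 6435 genes were called, against 6258 without the block.

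Sign changes touched 12 kinesins, none of them called, and their cause was not tested. With library size alone KIF5C was at 0.018 and KIF7 at 0.0076 on the log2 scale, and with no low-count filter KIF13A was at -0.0045. When 1 library was left out, the log2 fold changes ran from -0.12 to 0.18 for KIF13A, from -0.022 to 0.15 for KIF16B, from -0.080 to 0.033 for KIF5C and from -0.20 to 0.057 for KIF24. They ran from -0.062 to 0.47 for KIF27, from -0.020 to 0.46 for KIF6, from -0.16 to 0.10 for KIF7 and from -0.050 to 0.22 for KIF9. They ran from -0.014 to 0.10 for KIF18B, from -0.0058 to 0.10 for KIF22, from -1.27 to 0.14 for KIF4B and from -0.021 to 1.71 for KIF25. With at least 1 CPM required in 2 libraries, KIF4B, KIF6 and KIF25 were not tested. With 2 libraries a group, differences near the size of KIF2C's pass or miss the threshold by the choice of fit.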
